A study of Oryctolagus cuniculus with 17 samples.

Results

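Motile cilia genes are described here in the lungs of preterm rabbit pups kept in 95% or 21% oxygen. A gene was a member when its human gene name had the form of an axonemal dynein heavy chain (DNAH), dynein intermediate chain (DNAI), dynein arm assembly factor (DNAAF), cilia and flagella associated protein (CFAP), radial spoke head protein (RSPH), outer dynein arm docking complex subunit (ODAD), tektin (TEKT) or sperm associated antigen (SPAG) followed by its number, or was CCDC39, CCDC40 or HYDIN. The rule used names only and no measured value. It matched 72 of the 13827 entries of the count table, and keeping the entry with the higher total of the 2 for DNAH14 left 71 members. Of these, 70 had enough reads to be tested and DNAH14 had not.

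New Zealand White pups were taken by C-section at 28 days of gestation, before term, and were kept in incubators at 95% oxygen (hyperoxia, HT) or 21% oxygen (normoxia, NT) and fed a milk replacer. Poly(A) RNA of right lung homogenate, per the labels, was sequenced on day 3, 5 or 7 in 17 samples. Groups NT3, HT3, NT5, NT7 and HT7 had 3 samples each and HT5 had 2. No allele or drug distinguished the groups, all of which carried preterm birth, and the labels do not say whether replicates were littermates, so the p-values measure the spread between these samples.

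A motile cilium is a microtubule axoneme whose outer doublets carry rows of outer and inner dynein arms, and the arms slide the doublets past each other to bend the shaft. Radial spokes and the central apparatus regulate the arms, tektins and other inner proteins line the doublet walls, and cytoplasmic assembly factors build the arms before they are carried into the cilium. In the lung, motile cilia stand on the multiciliated cells of the airways, where they move mucus, and transcription factors such as FOXJ1 and the RFX family drive the genes of the axoneme. Multiciliated cells are a small part of a whole-lung homogenate, and in such bulk RNA fewer ciliated cells and less RNA per cell cannot be told apart.

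The presence of ciliated cell RNA was checked on the main ciliated cell regulator, which does not by itself identify the tissue as lung. FOXJ1 was measured in all 17 samples, at 27.2 to 53.3 CPM (reads of a gene relative to the size of its library, scaled with the TMM factors of edgeR). Mean levels of the 70 members tested ran from 0.400 to 233 CPM with a median of 11.1 CPM. These levels are not per transcript length and are compared only between samples. The totals of all table entries per sample ranged from 14508362 to 19961087 counts. At 63 members the locus carried 1 gene. The remaining 8 (CFAP70, CFAP92, DNAAF2, DNAH2, RSPH10B, SPAG7, SPAG8 and TEKT2) were counted at loci that also carried other genes, and the reads of a member and its neighbour there cannot be separated.

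Motile cilia genes changed in few cases and in both directions. Calls rest on edgeR's quasi-likelihood test with the Benjamini-Hochberg method applied to the 13142 genes tested, and a gene was called upregulated or downregulated at an adjusted p-value under 0.05. On day 3, 0 of 70 members were called, against 1.03% of all genes. The lowest adjusted p-value of a member on that day was 0.193 (SPAG9), 3 members had an unadjusted p-value under 0.05, and DESeq2 also called 0. On day 5, 4 members were upregulated and 3 downregulated, which is 10% of the members, against 31.3% of all genes (15.9% upregulated and 15.4% downregulated). On day 7, 8 were upregulated and 6 downregulated, which is 20.0% of the members, against 47.4% of all genes (23.7% in each direction). Fits on the samples of 1 day alone called 6 members on day 5 (8.57%, against 19% of all genes in that fit), 4 of them shared with the fit on all samples, and 9 on day 7 (12.9%, against 42.0%), where 7 were higher and 2 lower and the calls of CFAP36, CFAP61, DNAAF2, DNAH9, DNAI1 and DNAI3 were lost. The study's DEG thresholds ask for an absolute log2FC above 2 together with an adjusted p-value below 0.01, and there 0 members were DEGs on any day by edgeR's quasi-likelihood test, against 0.0533%, 1.58% and 4.59% of all genes on days 3, 5 and 7.

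Most members had a log2FC below 0 on each day, by small amounts. On day 3, 55 of 70 had a lower fitted level in hyperoxia, with a median log2FC of -0.16. On day 5, 53 were lower with a median of -0.21, and on day 7, 42 were lower with a median of -0.15. Over all genes tested the medians were 0.0008, -0.019 and -0.0078, and 49.92%, 51.37% and 50.37% of genes were lower. The members varied together among pups, so the counts of lower members are not independent observations. Within NT3, 53 of 70 members lay above their own mean in replicate 1 and 20 in replicate 3. The 95% interval of the log2FC lay between -1 and 1 for 55 members on day 3, 44 on day 5 and 41 on day 7, against 73%, 53.8% and 51.9% of all genes, so for those members a change beyond a log2FC of 1 in either direction lay outside the interval, while the intervals of the others reached past it.

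**Figure D1:**
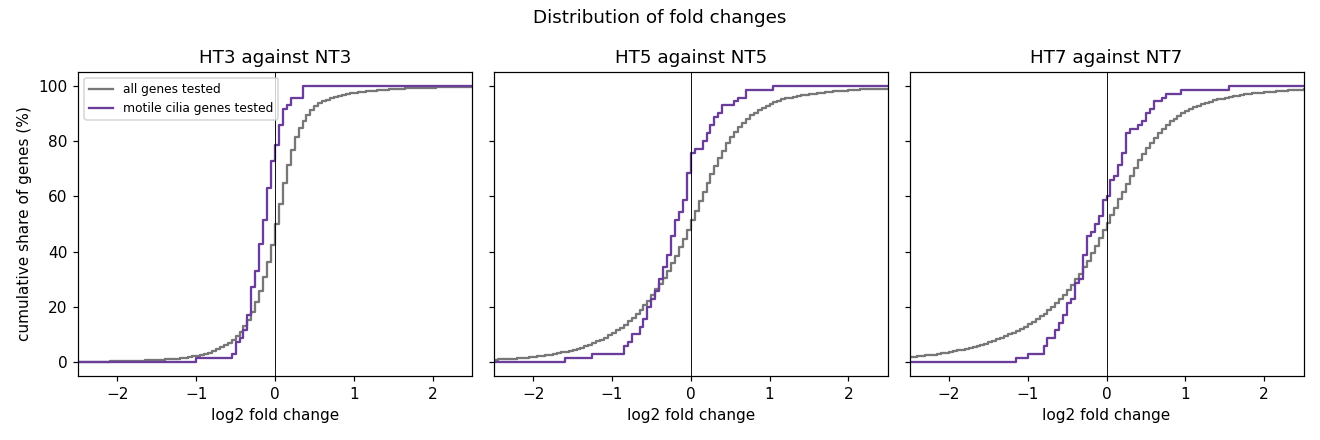
Cumulative share of genes (percent, vertical axis) by log2 fold change of hyperoxia against normoxia (horizontal axis) on each day, for the 70 motile cilia genes (purple) and all 13142 genes tested (grey). The members' curve lies left of 0 for 55, 53 and 42 of the 70 genes and reaches neither -2 nor 2 on any day, while the grey curve widens from day 3 to day 7.

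The 62 members tested with a locus of their own had medians of -0.17, -0.25 and -0.25 on days 3, 5 and 7, and 5 of them were upregulated and 5 downregulated on day 7 (16.1% called, against 47.4% of all genes). The 8 members at shared loci had a median of 0.35 on day 7, where 3 were upregulated and 1 downregulated (50% called, near the share of all genes). At those loci the neighbours are genes of many cell types, such as ACAD9 beside CFAP92 and RPL36A beside DNAAF2, and their part in the values was not tested.

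**Figure D2:**
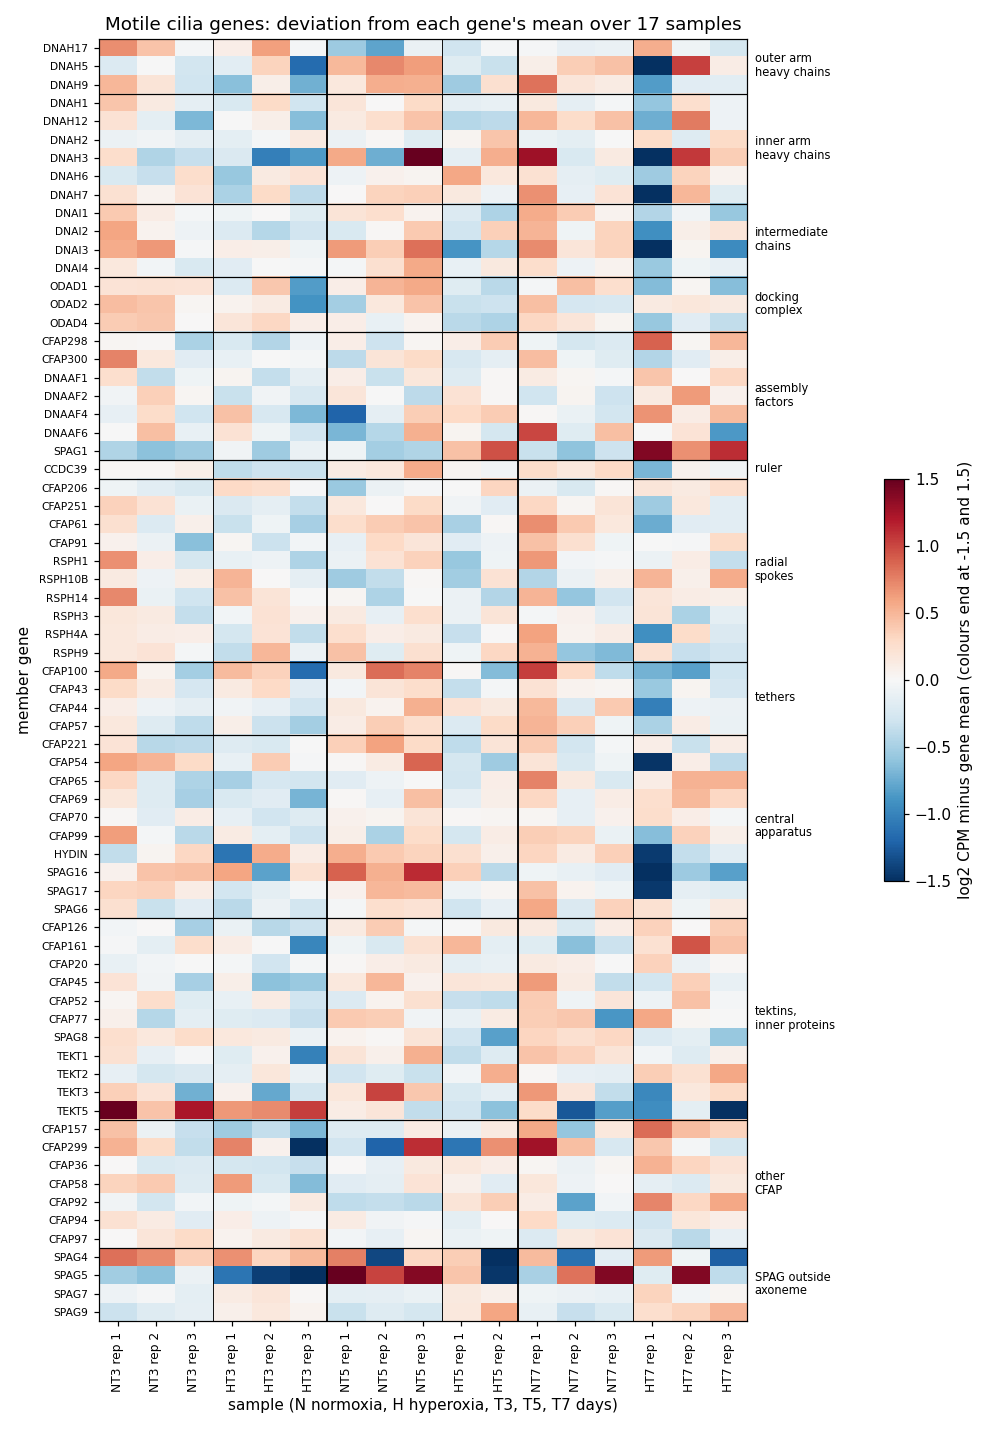
Each row is a member, grouped by role, and each column a sample. Colour gives log2 CPM minus the gene's mean over the 17 samples, with the scale ending 1.5 above and below the mean. HT7 replicate 1 is the darkest blue column for long dynein and central apparatus genes such as DNAH7, DNAI3, HYDIN, SPAG17 and CFAP54, and SPAG1 is red in HT5 and HT7.

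Among the outer arm heavy chains, which are the motors that set beat frequency, DNAH9 was downregulated on day 7. DNAH9 (chromosome 19, 8021734 to 8053535) measured 10.4, 16.5 and 16.6 CPM in the HT7 samples and 32.6, 21.0 and 20.3 CPM in the NT7 samples. All HT7 samples lay below all NT7 samples, and the log2FC was -0.76 with a standard error of 0.29 (adjusted p-value of 0.0432 by edgeR's quasi-likelihood test). The call held in 3 of 6 leave-one-out fits, each made without 1 sample of day 7, in which the log2FC ranged from -0.89 to -0.51.

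DNAH5, another outer arm motor of the airway cilium, was not called on any day in the fit on all samples. It measured 4.21, 31.3 and 16.6 CPM in HT7 and 16.3, 19.8 and 20.8 CPM in NT7. The HT7 samples thus held both the lowest and the highest value of the day, and the 95% interval of the log2FC ran from -1.13 to 0.88. In HT5 it measured 13.5 and 12.1 CPM, both below the NT5 samples at 21.5, 25.2 and 23.7 CPM, and the interval there ran from -2.02 to 0.28 (adjusted p-value of 0.232). With the samples of day 5 alone DNAH5 was called, at a log2FC of -0.86 and an edgeR adjusted p-value of 0.0284. DNAH17, an outer arm chain known mainly from sperm, was not called on any day.

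Of the 7 inner arm heavy chains, which shape the waveform, 6 were tested and 0 were called by edgeR's quasi-likelihood test on any day with all samples. On day 5, 1 had an unadjusted p-value under 0.05 and on days 3 and 7, 0 had, and DESeq2 called 0 of them on each day. DNAH12 was called on day 5 with the samples of that day alone, DNAH2 on that day without HT5 replicate 1 (with a lone HT5 sample), and DNAH2, DNAH7 and DNAH12 on day 7 without HT7 replicate 2. DNAH7 had a day 7 log2FC of -0.50 with an interval from -1.33 to 0.32, and DNAH2, which was read at a locus shared with TMEM88 and KDM6B, one of 0.22 from -0.06 to 0.50. DNAH14 lay at 0.0512 to 0.337 CPM and was not tested.

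Of the 4 intermediate chains, which anchor the arms' motors, 2 were downregulated on day 7. DNAI1, the intermediate chain of the outer arm (chromosome 1, 19301215 to 19371010), measured 6.75, 8.83 and 6.15 CPM in HT7 against 13.5, 11.9 and 9.47 CPM in NT7. The groups did not overlap, and DNAI1 was downregulated with a log2FC of -0.68 and a standard error of 0.19 (edgeR's adjusted p-value of 0.00734). It stayed so in all 6 leave-one-out fits, with a log2FC of -0.84 to -0.56, but not in a fit on the 6 samples of day 7 alone. On day 5 the HT5 samples at 7.91 and 6.60 CPM also lay below the NT5 samples at 10.4, 10.9 and 9.46 CPM. The log2FC was -0.50 with edgeR's adjusted p-value of 0.0810, which became 0.0287 when the replicate number was added to the model as a block. This block gave samples of the same number a shared effect over all days and groups, although the labels do not say what the numbers stand for.

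DNAI3 (WDR63), an intermediate chain of an inner arm (chromosome 13, 79772959 to 79842758), was downregulated on days 5 and 7. In HT5 it measured 3.64 and 4.98 CPM against 10.5, 8.66 and 11.9 CPM in NT5, a log2FC of -1.26 with a standard error of 0.43 and an adjusted p-value of 0.0379 by edgeR's quasi-likelihood test. In HT7 it measured 1.50, 6.89 and 3.48 CPM against 11, 7.62 and 8.47 CPM in NT7, a log2FC of -1.19 with a standard error of 0.38 and an adjusted p-value of 0.0174. The hyperoxia samples were below the normoxia samples on both days, although HT7 replicate 2 came close to NT7 replicate 2. The day 5 call was lost in all 5 leave-one-out fits of that day, with a log2FC of -1.52 to -1.06, and the day 7 call in 2 of 6, with one of -1.84 to -0.80.

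The other intermediate chains, DNAI2 of the outer arm and DNAI4 of an inner arm, were not called on any day. DNAI2 had a day 7 log2FC of -0.42 with an interval from -1.03 to 0.20, and DNAI4 one of -0.32 from -0.71 to 0.08. All 4 intermediate chains thus had a log2FC below 0 on day 7, of which 2 were called, against 23.7% of all genes downregulated, and their median was -0.55. Both calls were lost with the samples of day 7 alone, where edgeR's quasi-likelihood test gave adjusted p-values of 0.0544 for DNAI1 and 0.0886 for DNAI3.

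In the docking complex, which fixes the outer arms to the doublets, ODAD4 was downregulated on days 5 and 7. It measured 21.7 and 20.9 CPM in HT5 against 30.8, 26.6 and 29.9 CPM in NT5, and 19.4, 25.6 and 22.3 CPM in HT7 against 35.8, 32.7 and 29.7 CPM in NT7. No hyperoxia sample of either day reached the lowest normoxia sample. The log2FC was -0.45 on day 5 (edgeR's adjusted p-value of 0.0375) and -0.54 on day 7 (0.00432). The day 7 call held in all 6 leave-one-out fits and the day 5 call in 1 of 5, and the latter was also lost with the samples of day 5 alone. The span of ODAD4 overlaps ACLY on the opposite strand, as that of DNAI1 does FAM219A, and the sources used here do not say whether counting used strand.

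ODAD1 and ODAD2 were not called in the fit on all samples, and ODAD1 was called on day 7 without HT7 replicate 2. ODAD1 had a log2FC of -0.69 on day 5 with an interval from -1.43 to 0.04 and of -0.62 on day 7 from -1.27 to 0.03. ODAD2 was at 0.12 on day 7, from -0.46 to 0.71. CCDC39, which with its partner forms the ruler that spaces the arms along the axoneme, measured 7.90, 13.2 and 12.2 CPM in HT7 and 15.4, 14.2 and 15.6 CPM in NT7. These groups did not overlap, and the log2FC of -0.43 had an adjusted p-value of 0.0545, just past the threshold. CCDC39 was called with DESeq2 (0.0442), with the replicate block (0.0467), with the offset for gene span (0.0440) and without HT7 replicate 2 (0.0214), and adjusted p-values of its other alternatives reached 0.221.

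**Figure D3:**
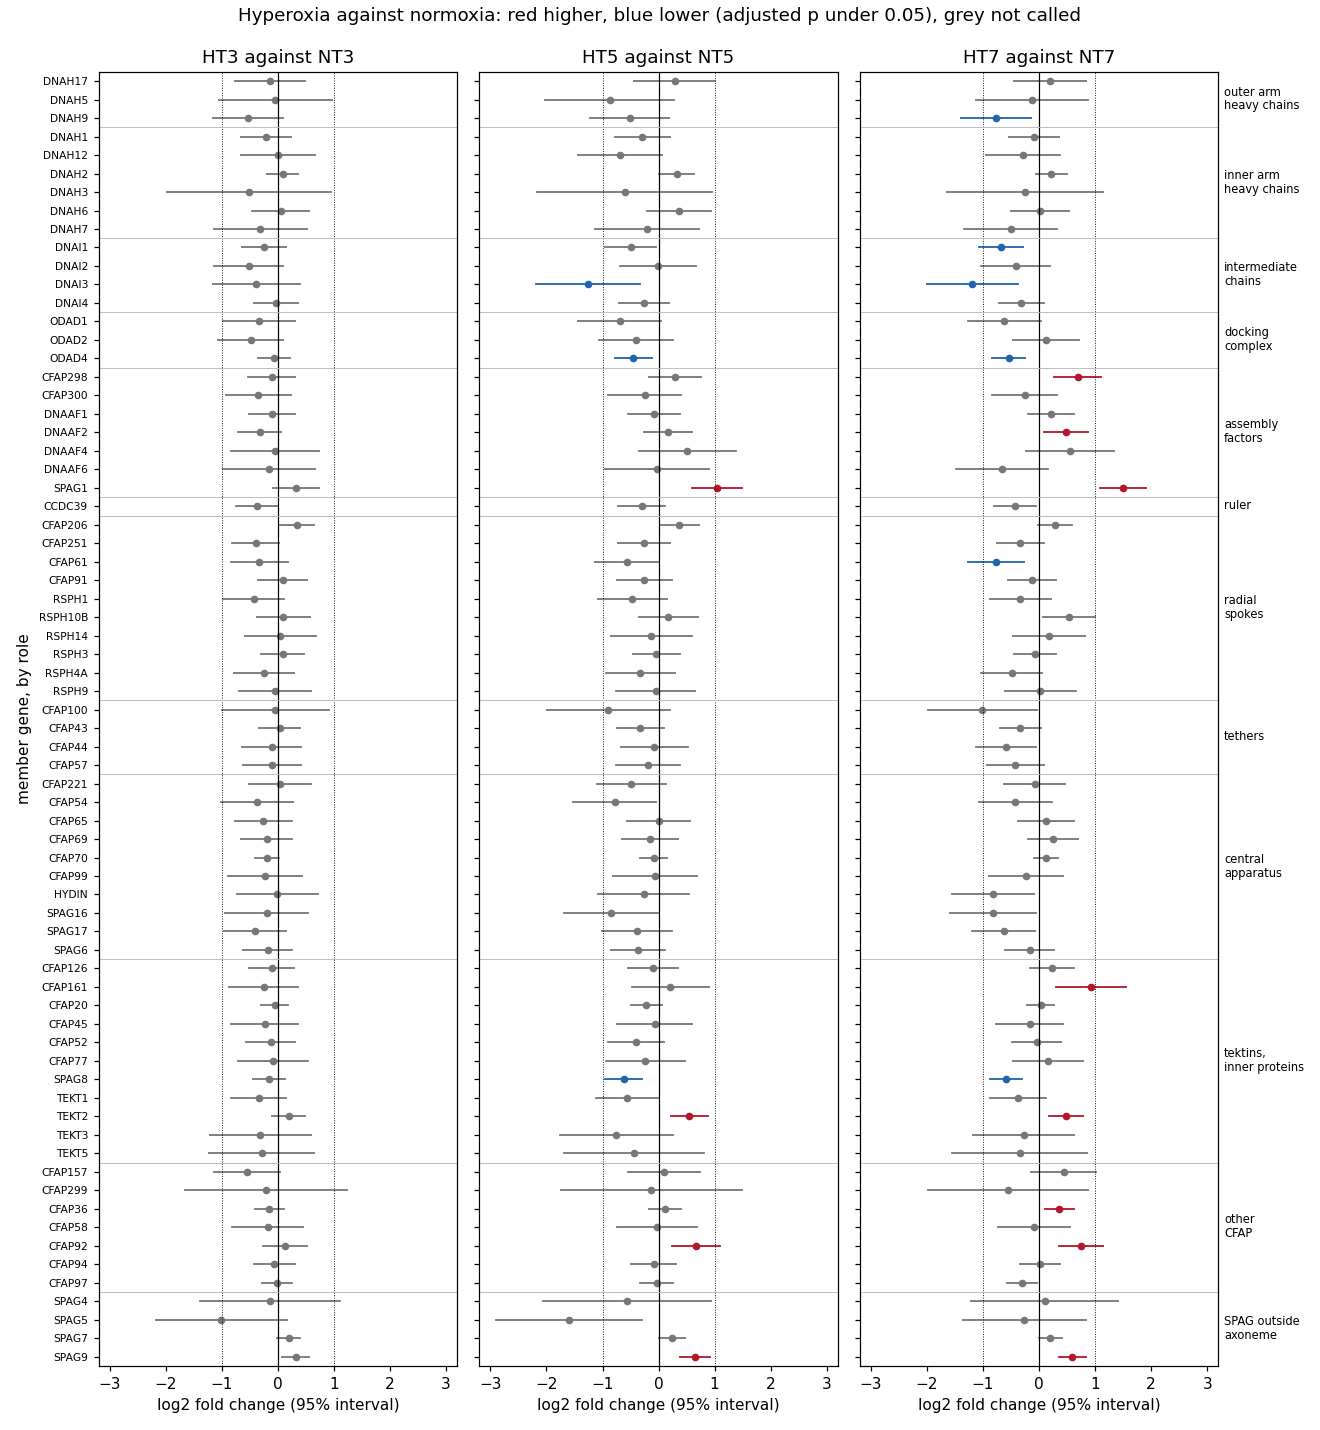
Points give the log2 fold change of hyperoxia against normoxia for each of the 70 members tested and lines its 95% interval, by role from top to bottom, on days 3, 5 and 7. Red and blue mark genes upregulated and downregulated at an adjusted p-value under 0.05, and dotted lines a log2 fold change of -1 and 1. There are no coloured points on day 3, 7 on day 5 and 14 on day 7, where SPAG1 at 1.50 lies farthest to the right and DNAI3 at -1.19 farthest to the left.

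Of the 7 dynein arm assembly factors, 3 were upregulated on day 7 and 0 downregulated (42.9% called, against 47.4% of all genes and 23.7% upregulated), with a median log2FC of 0.48 and 3 at an unadjusted p-value under 0.05. SPAG1, a cytoplasmic factor that brings chaperones to the arms under assembly, had the largest day 7 log2FC of the members called. SPAG1 (chromosome 3, 115776227 to 115892315) measured 145.5, 89.3 and 120.1 CPM in HT7 and 44.1, 36.5 and 44.8 CPM in NT7. The lowest HT7 sample was above the highest NT7 sample by a wide margin, with a mean of 118 ± 28.2 CPM against 41.8 ± 4.60 CPM (SD, n = 3 each). The log2FC was 1.50 with a standard error of 0.19 (edgeR's adjusted p-value of 3.18e-05), and the call held in all 6 leave-one-out fits, with a log2FC of 1.33 to 1.68.

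The increase of SPAG1 was present by day 5. HT5 measured 75.2 and 108.2 CPM against 53.1, 39.2 and 40.7 CPM in NT5, a log2FC of 1.05 with a standard error of 0.21 and an edgeR adjusted p-value of 0.00218. Without HT5 replicate 2 the log2FC was 0.75 with an adjusted p-value of 0.0672. On day 3, HT3 measured 53.6, 38.4 and 51.9 CPM against 40.7, 36.3 and 38.3 CPM in NT3, where the groups overlapped and the log2FC of 0.32 was not called (interval from -0.09 to 0.73).

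CFAP298, another assembly factor, was upregulated on day 7 and not called on days 3 and 5. It measured 66.9, 37.1 and 51.4 CPM in HT7 and 34.9, 30.3 and 31.5 CPM in NT7, and the lowest HT7 sample was just above the highest NT7 sample. The log2FC was 0.69 with a standard error of 0.20 (edgeR's adjusted p-value of 0.0102), and 5 of 6 leave-one-out fits kept the call. DNAAF2, which acts with chaperones to fold the heavy chains, measured 49.2, 70.2 and 46.8 CPM in HT7 against 36.5, 46.2 and 36.3 CPM in NT7, with a log2FC of 0.48 and an adjusted p-value of 0.0402. The lowest HT7 sample lay just above the highest NT7 sample. Its locus is shared with RPL36A, which encodes a ribosomal protein, and the call held in 3 of 6 leave-one-out fits. DNAAF1, a further factor, was not called and had a day 7 log2FC of 0.22 with an interval from -0.19 to 0.63.

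Of the 10 radial spoke genes, CFAP61 was downregulated on day 7 and no other was called on any day in the fit on all samples. CFAP61, a protein of the spoke base (chromosome 4, 16246538 to 16494794), measured 2.37, 3.51 and 3.53 CPM in HT7 and 6.43, 5.19 and 4.42 CPM in NT7. The groups were separate, with a log2FC of -0.77, a standard error of 0.24 and an adjusted p-value of 0.0150 by edgeR's quasi-likelihood test. The call held in 4 of 6 leave-one-out fits and was lost without HT7 replicate 1 or NT7 replicate 1. With an offset for gene span, the call was lost (log2FC -0.50, adjusted p-value of 0.0830). The spoke head genes had intervals that held 0 on day 7, with log2FC values of -0.33 for RSPH1, -0.49 for RSPH4A and 0.02 for RSPH9. RSPH4A measured 5.02, 11.6 and 8.20 CPM in HT7 and 14.49, 9.92 and 10.3 CPM in NT7, so HT7 replicate 2 lay within the NT7 range.

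The central apparatus, the pair of singlet microtubules with their projections, had 0 of 10 members called on any day by edgeR's quasi-likelihood test in the fit on all samples, while DESeq2, and edgeR without HT7 replicate 3, called HYDIN and SPAG17 on day 7. On day 7, 3 had an unadjusted p-value under 0.05, all lower, and these were HYDIN, SPAG16 and SPAG17. Of all genes, 27.0% were lower at an unadjusted p-value under 0.05 on that day, so this share is near that of all genes. HYDIN, the large protein of a projection whose loss stiffens the beat, measured 12.8, 26.8 and 30.7 CPM in HT7 and 42.9, 37.5 and 44.2 CPM in NT7. The groups did not overlap, and the log2FC of -0.83 had an interval from -1.55 to -0.10 and an adjusted p-value of 0.0593. With DESeq2, or with the replicate number as a block, HYDIN passed the threshold (lowest adjusted p-value over these settings 0.0334), and with the offset for gene span the log2FC was -0.49.

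SPAG17 had a day 7 log2FC of -0.64 (interval from -1.19 to -0.08, adjusted p-value of 0.0577) and SPAG16 one of -0.83 (from -1.60 to -0.06, 0.0726). SPAG6, which like both belongs to the central apparatus, was at -0.17 with an interval from -0.60 to 0.26. Of the inner arm tethers, CFAP43 and CFAP44 hold an inner dynein to the doublet. CFAP44 had a log2FC of -0.59 (from -1.12 to -0.05, adjusted p-value of 0.0667) and CFAP43 one of -0.33 (from -0.71 to 0.04), and none of the 4 tethers was called on any day in the fit on all samples.

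The tektins and inner microtubule proteins, 11 in all, moved both ways. On day 7, 2 were upregulated and 1 downregulated (27.3% called, against 47.4% of all genes), with a median log2FC of -0.04. CFAP161, a protein of the doublet lumen (scaffold GL018737, 1673166 to 1683542), measured 6.46, 10.6 and 7.43 CPM in HT7 against 4.85, 3.58 and 4.42 CPM in NT7. All HT7 samples were above all NT7 samples, and the log2FC was 0.93 with a standard error of 0.29 (edgeR's adjusted p-value of 0.0165). It remained called in 4 of 6 leave-one-out fits. TEKT1, a core tektin filament, was at -0.37 with an interval from -0.87 to 0.12.

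TEKT2, a further tektin, and SPAG8, an inner protein, were called on days 5 and 7, but at loci with other genes. TEKT2 measured 143.9, 130.1 and 166.2 CPM in HT7 and 112.3, 101.7 and 101.6 CPM in NT7, a log2FC of 0.48 (edgeR's adjusted p-value of 0.0103), after one of 0.55 on day 5 (0.0142). The HT7 samples were above all NT7 samples. These reads are also counted for ADPRS, a hydrolase of ADP-ribose, and for an entry whose gene name the table holds as a number. SPAG8 measured 50.8, 52.9 and 39.3 CPM in HT7 against 73.3, 68.9 and 72.7 CPM in NT7. All were below normoxia, with a log2FC of -0.59 (0.00247), after -0.62 on day 5 (0.00796), and the same reads are counted for HINT2, a mitochondrial enzyme. The day 5 calls of TEKT2 and SPAG8 were lost with the samples of that day alone, and the day 7 call of TEKT2 without HT7 replicate 3.

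Of the remaining CFAP genes, 2 of 7 were upregulated on day 7 (28.6%, near the 23.7% of all genes). CFAP92, read together with ACAD9, had a log2FC of 0.67 on day 5 (edgeR's adjusted p-value of 0.0213) and of 0.75 on day 7 (0.00376). Its day 5 call was lost without NT5 replicate 3 and at an adjusted p-value under 0.01. Its HT7 samples measured 59.4, 44.3 and 53.4 CPM and its NT7 samples 38.6, 20.4 and 34.6 CPM. CFAP36, named after its values were seen, measured 29.0, 25.4 and 23.3 CPM in HT7 and 20.7, 19.1 and 20.7 CPM in NT7, with a log2FC of 0.36 and an adjusted p-value of 0.0226. Both had HT7 samples above all NT7 samples. The call of CFAP36 held in 4 of 6 leave-one-out fits.

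Of the 4 SPAG genes that act outside the axoneme, SPAG9 was upregulated on days 5 and 7. SPAG9, a scaffold of JNK signalling found in many tissues, measured 269.5, 285.1 and 321.7 CPM in HT7 against 209.8, 178.3 and 193.8 CPM in NT7. The log2FC was 0.65 on day 5 (edgeR's adjusted p-value of 0.00167) and 0.59 on day 7 (0.000643), and the groups were separate on day 7. The day 5 call was lost without HT5 replicate 2, at a log2FC of 0.41.

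SPAG5, a spindle protein of dividing cells, had the lowest day 5 log2FC of the members at -1.60, but its HT5 samples measured 14.51 and 3.95 CPM, and the adjusted p-value was 0.0591. It was called by DESeq2 (adjusted p-value of 0.0164) and, with edgeR, without HT5 replicate 1 (log2FC of -2.81, adjusted p-value of 0.0149), a fit in which the lone HT5 sample is assumed to vary like the other groups, while without HT5 replicate 2 the log2FC was -0.95. Of 14 mitotic genes listed beside the members, 11 were downregulated on day 5, against 15.4% of all genes, with a median of -1.40. The HT5 samples differed here too, with median deviations of the list of 0.33 and -0.91, against 1.11 to 1.29 in NT5. On day 7, 0 of the 14 were called, with a median log2FC of -0.28. The name of SPAG5 matches the rule, but its function is that of the mitotic list.

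**Figure D4:**
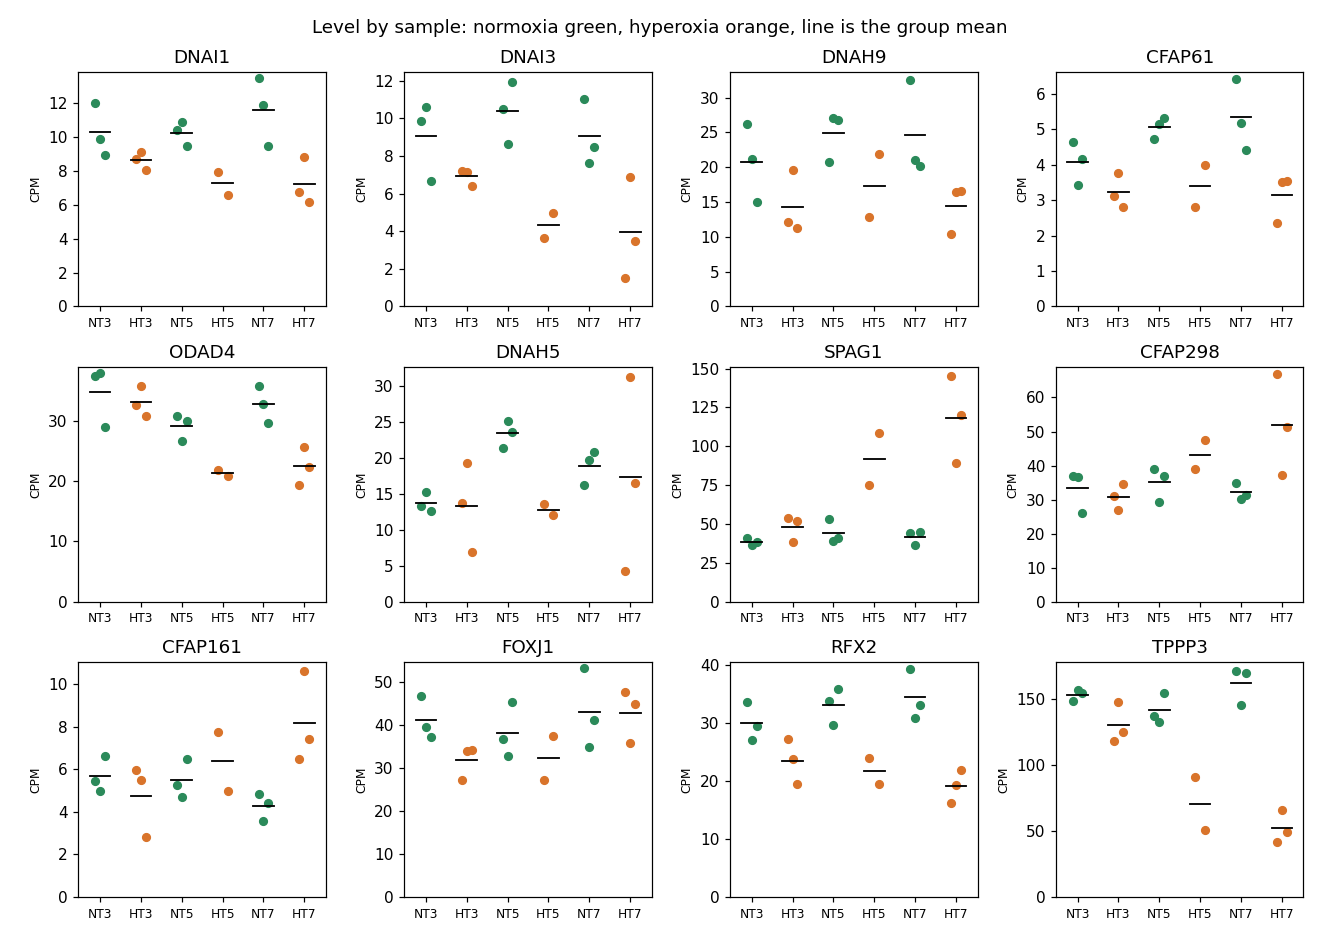
Level in CPM (vertical axes, from 0) in every sample of the 6 groups for 9 members and for FOXJ1, RFX2 and TPPP3. Green points are normoxia samples, orange points hyperoxia samples and lines group means. DNAI1, ODAD4, RFX2 and TPPP3 are lower in HT5 and HT7 than in the normoxia group of the same day, SPAG1 is higher, FOXJ1 overlaps on days 5 and 7, and DNAH5 spans 4.21 to 31.3 CPM within HT7.

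Whether the response differed between days was tested as a difference of log2FC values. From day 3 to day 7 the effect of hyperoxia increased for 3 members, SPAG1 by 1.18 (edgeR's adjusted p-value of 0.00865), DNAAF2 by 0.81 (0.0383) and CFAP36 by 0.51 (0.0449), and for none in the other direction. Of all genes, 20.5% passed this test, 9.52% with an increase and 11% with a decrease. SPAG1 kept this call in all 12 leave-one-out fits, with a value of 1.01 to 1.35. DNAAF2 kept it in 5 of 12 and not with the offset for gene span, and CFAP36 in 2 of 12 and not with 1 entry per locus. The count was 1 without HT3 replicate 3, without NT3 replicate 2 or without NT7 replicate 3, and 5 without HT7 replicate 2, where DNAAF2 was lost and CFAP298, DNAI3 and ODAD4 passed, the last 2 with a decrease. From day 5 to day 7, 0 members passed, as did 0% of all genes, with 0 members at an unadjusted p-value under 0.05 and 0 by DESeq2.

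Within normoxia, 0 members differed between NT7 and NT3, as did 0% of all genes, by edgeR's quasi-likelihood test. Of the members, 2 had an unadjusted p-value under 0.05, and DESeq2 called 0. Within hyperoxia, 18 members differed between HT7 and HT3, 13 higher and 5 lower on day 7, against 44.3% of all genes (22.3% higher and 22% lower). The higher ones included SPAG5 with a log2FC of 1.90, SPAG1 with 1.30 and CFAP157 with 1.08, and the lower ones included TEKT5 with -1.62, SPAG16 with -1.06 and ODAD4 with -0.56. This count was 10 without HT3 replicate 3 and 10 without HT7 replicate 3. It shares the HT7 samples with the comparison of HT7 with NT7. TEKT5, a tektin known from sperm, was read at 0.102 to 0.952 CPM. Its call was lost with DESeq2 and without HT3 replicate 3, HT7 replicate 1 or HT7 replicate 3, and that of SPAG5 without HT7 replicate 2. Both genes moved the same way within normoxia without being called, TEKT5 with a log2FC of -1.56 and SPAG5 with 1.16 in NT7 against NT3.

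The level of the members as a whole varied among the pups of each group. The median deviation of the 68 members with a mean of at least 1 CPM from their means over all samples was 0.02 ± 0.16 in NT3, -0.13 ± 0.12 in HT3, 0.12 ± 0.11 in NT5, -0.05 ± 0.09 in HT5, 0.08 ± 0.21 in NT7 and -0.01 ± 0.10 in HT7 (log2, SD, n = 3 each and 2 in HT5). NT7 replicate 1 had the highest value, 0.32, and HT3 replicate 3 the lowest, -0.26. Hyperoxia and normoxia samples overlapped on days 3 and 7. On day 3 the HT3 samples were at -0.11, -0.03 and -0.26 and the NT3 samples at 0.19, 0.01 and -0.14. On day 5 the HT5 samples, at -0.11 and 0.01, were below the lowest NT5 sample at 0.05.

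The HT7 samples had lower values of long genes, HT7 replicate 1 most of all. Over all genes the deviations of HT7 replicate 1 from the mean fell with the annotated gene span, by 0.25 on the log2 scale per 10 times the span (Spearman's rho of -0.21 across genes, which are not independent replicates), and those of HT7 replicates 2 and 3 had rho values of -0.07 and -0.09. In the samples of the other groups rho was -0.03 to 0.14. The members are long genes, with a median span of 53.5 kb against 26.2 kb for all genes tested. An offset for this trend left the day 7 count at 14, with 8 upregulated and 6 downregulated, and removed the calls of CFAP61 and DNAAF2 while CCDC39 and CFAP206 passed. Without HT7 replicate 1, 10 members were called (14.3%, against 40.4% of all genes in that fit), and without HT7 replicate 2, 26 were (37.1%, against 50.4%), with 9 upregulated and 17 downregulated. The latter fit added, among others, the spoke genes CFAP251, RSPH4A and RSPH10B, the tethers CFAP43 and CFAP44 and the central apparatus genes CFAP54, SPAG16 and SPAG17.

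The members also varied together among pups of a group. After the group means were removed, each member was correlated over the 17 samples with the mean of the other members that have a locus of their own, a description in which all points share libraries and normalization. Of these 62 members, 37 had a Pearson r above 0.5 (59.7%), against 5.47% of the 13072 genes that are no members, and the medians were 0.55 and -0.03. The highest were CFAP251 (r = 0.87), a spoke protein, and CFAP69 (0.86) of the central apparatus. All 4 intermediate chains and all 4 tethers were above 0.5, as were 5 of 10 spoke genes and DNAH9 (0.75) and ODAD4 (0.77). The planned measure was another, r of log2 CPM with the summed CPM of the remaining members, with group means kept. It was 0.69 for CFAP69, but -0.18 for CFAP251, 0.0035 for DNAH9, -0.55 for DNAI1, -0.51 for DNAI3 and -0.63 for ODAD4. That these members follow the rest thus holds only for the measure with group means removed.

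Low values were found for CFAP97 (-0.70), CFAP20 (-0.44), SPAG1 (-0.32) and CFAP298 (-0.15). The highest of the 8 members at shared loci was SPAG8 at 0.20. Among the 37 members above 0.5, which were set apart after the values were seen, 5 were downregulated (DNAH9, DNAI1, DNAI3, CFAP61 and ODAD4) and 1 upregulated (CFAP161) on day 7, with a median log2FC of -0.33 and 30 below 0. Of the remaining 33, 7 were upregulated and 1 downregulated, with a median of 0.13. Both shares, 16.2% and 24.2%, were below the 47.4% called of all genes. This split is a description with no test.

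**Figure D5:**
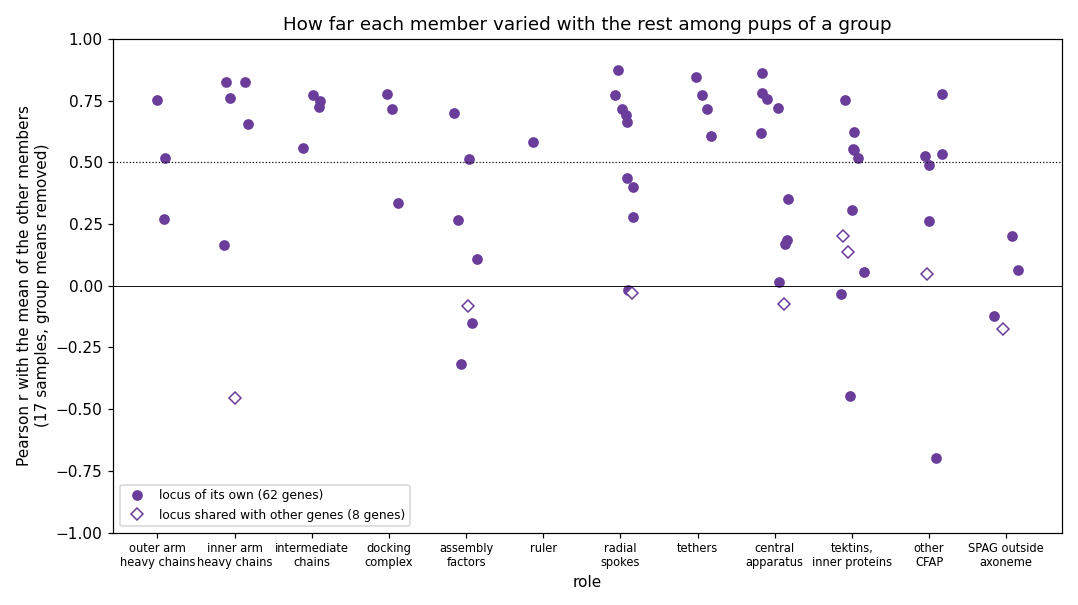
Pearson r (vertical axis) of each member's log2 CPM with the mean of the other members over 17 samples, group means removed, by role (horizontal axis, points spread sideways). Filled circles are the 62 members with a locus of their own, of which 37 lie above the dotted line at 0.5, and open diamonds the 8 at shared loci, the highest of which lies at 0.20.

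Of 13 regulators of ciliogenesis tested, 4 were downregulated on day 7 and 0 upregulated (30.8% called, against 23.7% of all genes downregulated and 47.4% called in either direction), with a median log2FC of -0.49. RFX2, a transcription factor of axonemal genes, measured 16.2, 19.3 and 21.9 CPM in HT7 and 39.4, 31.0 and 33.1 CPM in NT7, separate groups with a log2FC of -0.85 (edgeR's adjusted p-value of 0.000586), after -0.61 on day 5 (0.0191). GMNC, which starts the multiciliated programme, measured 0.115, 1.21 and 0.461 CPM in HT7 and 3.49, 2.63 and 2.80 CPM in NT7, with a log2FC of -2.32 (0.00114). CCNO, needed for the amplification of centrioles, was at -0.67 (0.0180).

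FOXJ1, the main regulator of motile ciliogenesis, measured 47.6, 35.8 and 44.8 CPM in HT7 and 53.3, 34.9 and 41.1 CPM in NT7, overlapping groups with a log2FC of -0.01 and an interval from -0.40 to 0.38. On day 3 it measured 27.3, 33.8 and 34.1 CPM in HT3 and 46.8, 39.4 and 37.3 CPM in NT3, where all HT3 samples were below all NT3 samples and the log2FC of -0.37 was not called (interval from -0.77 to 0.02, edgeR's adjusted p-value of 0.352). On day 5 the log2FC was -0.24, with an interval from -0.68 to 0.20. MCIDAS, a partner of GMNC in the programme, had a day 7 interval from -0.59 to 0.84, and RFX3 one from -0.93 to 0.13. The difference between FOXJ1 and RFX2 in response was not tested.

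Other genes of the cilium were called in both directions. Of 31 other axonemal genes, 2 were upregulated on day 7 (IQCD at 0.70 and NME7 at 0.65) and 6 downregulated, with SPA17 at -0.86 and DRC7 of the nexin link at -0.68 the lowest (25.8% called, against 47.4% of all genes). Of 26 intraflagellar transport genes, which carry axonemal cargo in motile and primary cilia of most cells, 5 were upregulated, with IFT52 at 0.90 and IFT22 at 0.79, and 10 downregulated, with IFT27 at -0.95 and DYNC2LI1 at -0.91 (57.7% called). Of 18 ciliated cell markers, 2 were upregulated, PIFO and STOML3 (0.50), and 2 downregulated, TPPP3 and CDHR3 (-0.89), or 22.2% called. TPPP3, a tubulin-binding protein abundant in ciliated cells, measured 41.7, 65.4 and 49.2 CPM in HT7 and 171.2, 145.5 and 169.5 CPM in NT7 (log2FC of -1.64, edgeR's adjusted p-value of 1.51e-05). PIFO rose by 2.07 on the log2 scale at 3.87, 6.59 and 3.28 CPM against 1.78, 0.472 and 0.997 CPM, and SNTN, an apical ciliary protein at 5 to 24 counts per sample on day 7, was not called, with an interval from -2.88 to 0.42.

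Markers of other lung epithelial cells were also called on day 7, when 47.4% of all genes were called and 23.7% in each direction. Of 9 general epithelial markers, 7 were upregulated on day 7 and 0 downregulated, with a median log2FC of 1.36, led by CLDN4 at 2.19 and ELF3 at 1.97, and their median deviation was 0.67 to 1.59 in the HT7 samples and -0.52 to -0.07 in the NT7 samples. Of 12 club and secretory cell markers, 3 were upregulated (MUC5B at 2.56 and SCGB3A2 at 1.50 among them) and 4 downregulated (CYP2F1 at -3.72 and CLDN10 at -2.98 the lowest), or 58.3% called. Of 8 basal cell markers, 3 were upregulated, with KRT5 at 1.99, AQP3 at 1.76 and TP63 at 1.72, and 2 downregulated, DAPL1 at -2.99 and DLK2 at -1.91, or 62.5% called. Of 9 alveolar type 2 cell markers, SFTPA1 was upregulated at 1.17 and SLC34A2 at -1.51 and NAPSA at -1.49 were downregulated, or 33.3% called. The part of these cell types in the members' values was not tested.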

How the data were processed

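RNA of 17 lung samples in 6 groups was measured by RNA-seq. The authors deposited raw counts per locus without normalization, from stranded mRNA libraries read as paired ends. The submitters' processing notes name FastQC, STAR 2.7.10a and the build OryCun2.0, and positions are those of the table. The counting program and its strand setting are not given in the sources used here. Locus labels have the form StringTie writes, and a locus with several genes is repeated with the same counts (13313 loci, totals of 13123731 to 18111086 per sample). 44 entries have no gene name and stayed in the fit.

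Counts were tested with edgeR 4.0.16 in R 4.3.3 (filterByExpr with 13142 genes kept and 685 entries not tested, TMM factors, glmQLFit and glmQLFTest on 6 group means of all 17 samples, prior count of 0.125, Benjamini-Hochberg). The script was tested on simulated data. CPM use the TMM factors. Alternatives covered DESeq2 1.42.0 (the test of the study), RLE factors, no count filter, a prior count of 2, 1 entry per locus, the samples of 1 day alone, a replicate block, an adjusted p-value of 0.01 and leaving out each sample. An offset for gene span and, for comparisons of days, 1 entry per locus were added after the data were seen. Whether replicate numbers pair samples was checked with the correlation of deviations of same-numbered samples, which was 0.170, 0.117 and 0.156 on day 3, 0.226 and 0.117 on day 5, and 0.146, 0.0847 and 0.0516 on day 7. Day 3 alone met the criterion of 0.1 for each of 3 pairs. Samples of different numbers were not compared, so the check cannot show that the numbers pair samples.

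Members, roles and lists were chosen with earlier results of these data known. Genes named were a list of subunits by role, up to 5 called members per direction and day, by size of change, and 2 per direction of each other list, besides genes said to be named after their values were seen and CFAP69, CFAP97, CFAP157, CFAP206, CFAP251, DNAI2, DNAI4, DNAH17 and TEKT5. DNAH11, DNAH10, ODAD3, CCDC40, CFAP53, DNAAF3, DNAAF5, TP73 and SCGB1A1 were not analysed here. No promoter, protein or genome sequence of this build was used here.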

Additional observations from a re-analysis of the deposited data

Results flagged for a closer look

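For 3 members (4.29% of those tested, against 20.5% of all genes) the effect of hyperoxia differed between days by the test of the difference itself. From day 3 to day 7 the log2FC of SPAG1 increased by 1.18 (standard error of 0.27, edgeR's adjusted p-value of 0.00865), that of DNAAF2 by 0.81 (0.26, 0.0383) and that of CFAP36 by 0.51 (0.17, 0.0449). Of 12 leave-one-out fits, SPAG1 passed in 12, DNAAF2 in 5 and CFAP36 in 2. The day 7 values of these genes are given above, and DNAAF2 is counted together with RPL36A.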

How the results depend on the processing

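The members called on day 3 were 0 under each alternative. On day 5 the 7 members called became 6 with the samples of that day alone (ODAD4, SPAG8 and TEKT2 lost, DNAH5 and DNAH12 gained), 8 with DESeq2 (SPAG5 gained), 3 at an adjusted p-value under 0.01 and 0 to 8 when each sample was left out (0 without HT5 replicate 2, where 8.65% of all genes were called, and 8 without HT5 replicate 1, where 32.0% were, each with a lone HT5 sample assumed to vary like the other groups, and 4 without NT5 replicate 3). On day 7 the 14 became 9 with the samples of that day alone (7 higher and 2 lower), 6 at an adjusted p-value under 0.01, 18 with DESeq2 and 10 to 26 when each sample was left out. The 3 members whose response increased from day 3 to day 7 became 5 with DESeq2 and 1 to 5 when each sample was left out (1 without HT3 replicate 3, without NT3 replicate 2 or without NT7 replicate 3, and 5 without HT7 replicate 2), and the 18 of HT7 against HT3 became 10 to 17. The cause of these shifts was not tested, apart from the smaller number of samples or the stricter threshold itself. RLE factors and no count filter gave the same counts.

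With the replicate number as a block, 0 members were called on day 3 (0.822% of all genes). On day 5 this fit called 8 (DNAI1 in addition), or 11.4%, against 31.9% of all genes. On day 7 it called 17 (CCDC39, CFAP97 and HYDIN in addition), or 24.3%, against 47.9%, and for HT7 against HT3 it called 17 (24.3%, against 44.5%). The criterion used for pairing was met on day 3 only, and it cannot show that the numbers pair samples.

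SPAG1, SPAG9, ODAD4, SPAG8, CFAP92 and DNAI1 were called on day 7 in all 6 fits that left out a sample. No called member changed direction under an alternative. The planned search of promoters for motifs was not run. Calls rest on 2 or 3 samples per group, and members near 1 CPM have wide intervals.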
